A study of Rattus norvegicus with 6 samples.

Results

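Sympathetic and neurofilament genes were followed in isolated rat islets, 9 in all, and not all of them are particular to sympathetic nerves. They were the intermediate filament gene Prph, the neurofilament genes Nefl, Nefm and Nefh, and the catecholamine genes Th, Dbh, Ddc, Slc6a3 and Slc18a2. At 12 months the normalized signal of Prph was 8.22-fold lower than at 3 months, that of Slc6a3 7.12-fold lower and that of Dbh 4.45-fold lower. After normalization these genes did not overlap between the ages. Nefm and Th were lower by smaller amounts without overlap, Nefl, Nefh and Ddc overlapped between the ages, and Slc18a2 was too close to background at 12 months for a direction to be read. The genes were named as a group of known function, and the group was selected on the age differences of Prph and Slc6a3 between these same 6 arrays. Their age differences are therefore a description and carry no test. They are 9 of 13903 genes to which a probe could be matched, and each was read by 1 probe on 1 spot.

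The islets came from male Wistar rats, 3 rats aged 3 months and 3 aged 12 months, and the rats carried no allele or agent that the labels name. Islets were freed from the pancreas by collagenase digestion, and total RNA of each sample was labelled with Cy3 and hybridised to its own 1-colour array, which gives the spread between 3 samples of each age. Islets are clusters of hormone-secreting cells, and the nerve fibres that enter them are cut off from their cell bodies when islets are isolated. The 6 markers of beta cells and the 8 of other endocrine cells that had a probe were well above background on all 6 arrays. In such a mixed tissue, fewer cells of a type and less RNA per cell cannot be told apart.

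Sympathetic nerve fibres release noradrenaline onto islet cells and vessels, and noradrenaline restrains insulin secretion. In these neurons tyrosine hydroxylase turns tyrosine into dopa, dopa decarboxylase makes dopamine from it, a vesicular transporter loads dopamine into vesicles, and dopamine beta-hydroxylase makes noradrenaline there. Neurofilaments and peripherin form the intermediate filaments of the axon. Several of the catecholamine genes are also used by endocrine cells of the pancreas.

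Short stretches of promoter sequence are shown because they hold sequence motifs found in front of the genes that differed most and of Th and Slc18a2. They are from RefSeq (assembly GRCr8), which held the start sites of 6 of the 9 genes, and each is 30 bases long, lies before the start site and reads 5′ to 3′ on the strand of its gene. Capitals mark the motifs searched on either strand: TATAAA of the TATA box, the cyclic AMP response element TGACGTCA and its shorter form TGACG, the E-box CAGCTG, the homeodomain core TAATTA and the GC box GGGCGG. The Prph stretch is at chr7:132097242-132097271, plus strand, and the Th stretch at chr1:207508269-207508298, minus strand. The Dbh stretches are at chr3:30886082-30886111 and chr3:30886142-30886171, plus strand. The Slc6a3 stretch is at chr1:31579076-31579105, minus strand, and the Slc18a2 stretch at chr1:268399958-268399987, plus strand.
Prph: ataccgcagggcTATAAAgCCGCCCcgcat
Th: cagaggggcttTGACGTCAgcctggccttt
Dbh, first: gtttccaacaggCGTCAgagatccattgga
Dbh, second: atgatgtccatgCGTCAttagtgtcaatta
Slc6a3: cggtcctCCGCCCacccgGGGCGGgacgga
Slc18a2: agtgctatccgTGACGTCAgagccggactg

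The letters TATAAA begin 35 bases before the start of Prph and stand in 14.2% of 33469 promoters of the same length. The letters TGACGTCA begin 69 bases before the start of Th and 52 before that of Slc18a2, and stand in 1.83% of the promoters. The shorter TGACG, part of the longer motif, is present before Dbh on the other strand at 2 places, 234 and 174 bases from the start, and 21.2% of promoters hold it. The GC box begins 136 and 125 bases before the start of Slc6a3 and stands in 33.1% of promoters. A match is a run of letters in this window and does not show that a factor binds it.

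All levels below are quantile-normalized log2 signals, so that a difference of 1 is a doubling. Levels of different genes come from different probes and were not compared with each other. Prph encodes peripherin, an intermediate filament protein of peripheral neurons. Its level was 12.03, 11.10 and 10.02 on the 3-month arrays and 8.57, 8.26 and 7.20 on the 12-month arrays, in the order of replicates 1 to 3. The brightest 12-month array lay 1.45 below the dimmest 3-month array. The means were 11.05 ± 1.00 (SD, n = 3) and 8.01 ± 0.72 (SD, n = 3), a difference of -3.04 with a limma standard error of 0.58.

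Nefl encodes the light neurofilament chain, on which the other chains assemble. Its level was 9.98, 9.57 and 7.91 at 3 months and 8.19, 8.43 and 6.90 at 12 months. The third 3-month array lay below 2 of the 12-month arrays, and the difference in means was -1.32 with a standard error of 0.64. For Nefm, the medium chain, the arrays read 11.62, 11.23 and 11.48 at 3 months and 10.54, 10.71 and 10.31 at 12 months. Nefm had the smallest spread of the 4 filament genes within each age, and its ages lay apart by 0.52, with a difference of -0.92 (standard error 0.24). Nefh encodes the heavy chain, which is found mainly in large mature axons. Its level was 12.85, 12.41 and 11.74 at 3 months and 11.56, 11.06 and 12.00 at 12 months. Here replicate 3 at 12 months lay above replicate 3 at 3 months, and the difference was -0.79 (standard error 0.38).

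Th encodes tyrosine hydroxylase, the rate-limiting enzyme of catecholamine synthesis. Its level was 9.28, 9.30 and 9.93 at 3 months and 8.43, 9.08 and 7.32 at 12 months. The ages did not overlap, but the gap between them was 0.20, smaller than the SD of either age (0.37 and 0.89, n = 3), with a difference of -1.23 (standard error 0.48). Ddc encodes dopa decarboxylase, which endocrine cells use as well as neurons. Its level was 14.70, 14.74 and 14.65 at 3 months and 14.73, 15.23 and 14.65 at 12 months. The ages overlapped, and the difference of 0.17 had a standard error of 0.25.

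Dbh encodes dopamine beta-hydroxylase, the enzyme that sets noradrenergic neurons apart from dopaminergic ones. Its level was 10.61, 10.04 and 8.51 at 3 months and 7.95, 7.90 and 6.86 at 12 months. All 12-month arrays were below the dimmest 3-month array, by at least 0.57, and the difference was -2.15 (standard error 0.59). Slc6a3 encodes the dopamine transporter, which takes dopamine back into the cell. Its level was 10.34, 8.25 and 9.30 at 3 months and 6.23, 7.54 and 5.63 at 12 months. The ages lay 0.71 apart, and the difference was -2.83 (standard error 0.67). Slc18a2 encodes the vesicular monoamine transporter VMAT2, which beta cells also carry. Its level was 4.41, 3.59 and 4.36 at 3 months and 5.40, 4.85 and 4.44 at 12 months. The 12-month arrays read higher by a gap of 0.03, and the difference was 0.78 (standard error 0.36), but 2 of these 3 readings were not well above background.

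Slc18a2 was also the only gene of the 9 whose probe was not well above background on every array. It was well above background on 3 of 3 arrays at 3 months and on 1 of 3 at 12 months, replicate 1, while the other 8 genes were well above background on all 6 arrays. The lowest log2 level that counted as well above background ran from 2.89 to 3.17 on the 3-month arrays and from 4.26 to 5.13 on the 12-month arrays. The limit on the 12-month arrays thus lay near or above the levels of Slc18a2 at 3 months, and no direction is read for this gene.

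**Figure D1:**
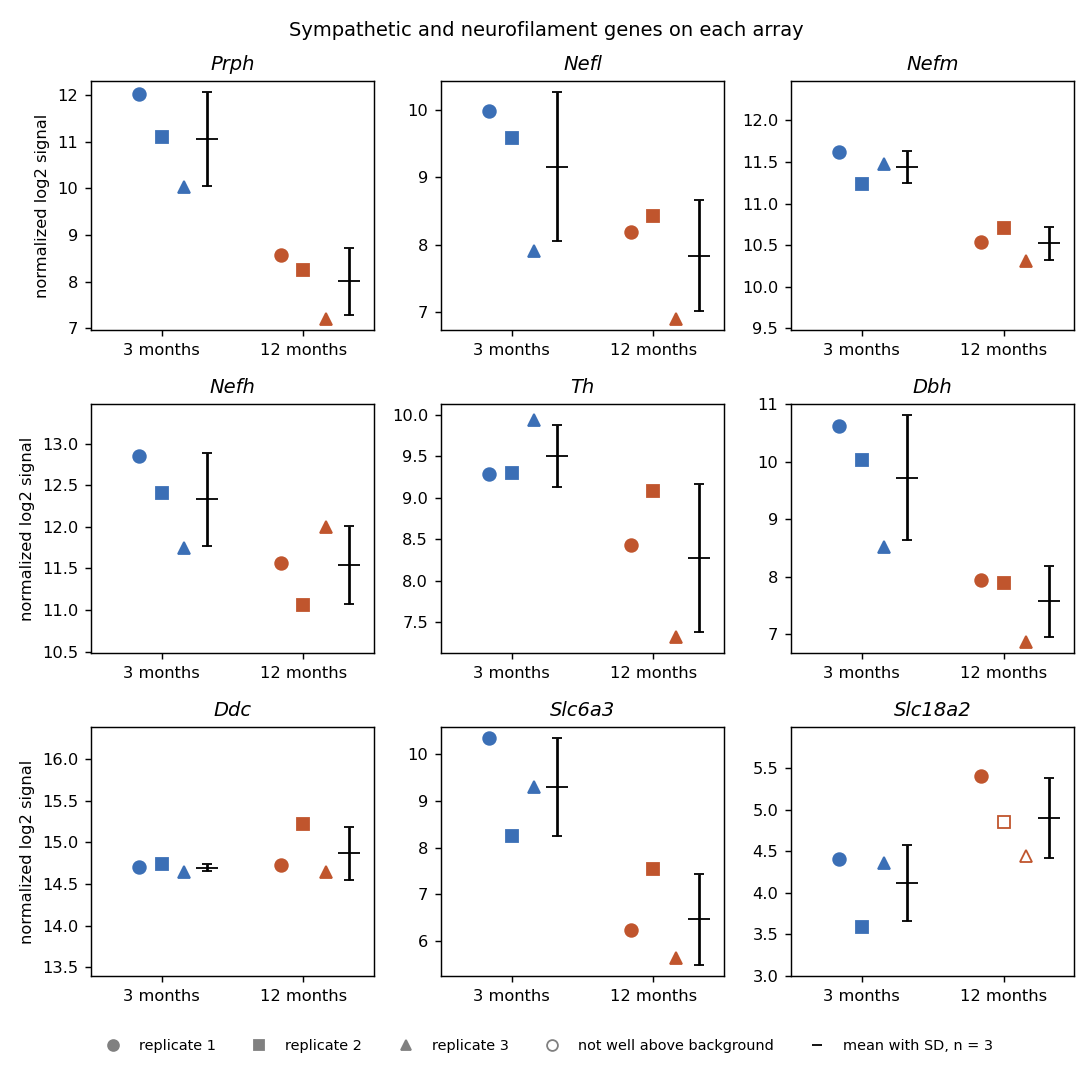
Quantile-normalized log2 signal of the 9 genes on each of the 6 arrays, 3 at 3 months (blue) and 3 at 12 months (orange), with symbols for the replicates, open symbols for probes not well above background, and bars for mean and SD (n = 3); each panel has its own axis. Prph, Dbh and Slc6a3 lie apart between the ages, Ddc does not, and Slc18a2 has 2 open symbols at 12 months.

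The arrays also differed in brightness before normalization. In scanner units Prph read 1176, 2131 and 1175 at 3 months and 789, 474 and 143 at 12 months, so that its ages lay apart without any scaling. Th read 185, 561 and 1108 at 3 months and 714, 888 and 156 at 12 months, and its ages overlapped until the arrays were scaled. Slc6a3 read 359.6, 267 and 701 at 3 months and 132, 278 and 47.0 at 12 months, with 1 array of each age overlapping. Dbh read 427, 989 and 402 at 3 months and 500, 363 and 113 at 12 months, and its ages overlapped too. Nefm read 877, 2380 and 3537 at 3 months and 3029, 2948 and 1189 at 12 months, likewise with overlap.

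Within an age the genes moved in part together. On replicate 3 at 12 months 8 of the 9 genes had their lowest 12-month level, against 42.4% of the 17872 probes with a value on all 6 arrays, and Nefh had its highest. On replicate 1 at 3 months 7 of the 9 genes had their highest 3-month level, against 32.9% of these probes. Prph, Nefl, Nefh and Dbh shared the same order of the 3-month arrays, with replicate 3 lowest at -1.03, -1.25, -0.59 and -1.21 from the 3-month mean. On that array Th stood highest, at 0.43 above its 3-month mean. Slc6a3 had another order, with replicate 2 lowest at 3 months (-1.04) and highest at 12 months (1.07). Ddc varied least at 3 months, with an SD of 0.05.

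**Figure D2:**
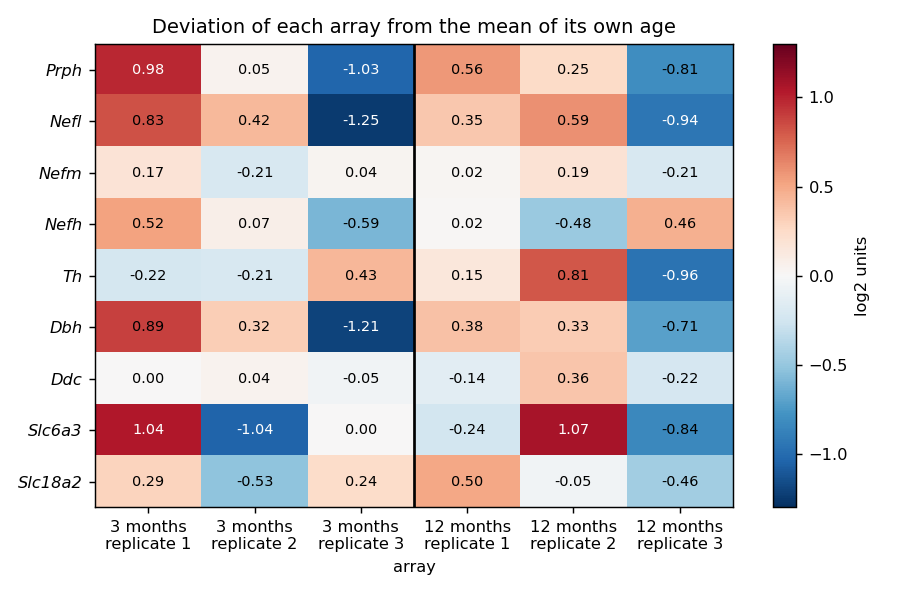
Deviation of the normalized log2 signal of each gene (rows) on each array (columns) from the mean of its own age, in log2 units, red above and blue below. Prph, Nefl and Dbh are blue on replicate 3 of both ages, and Slc6a3 runs from 1.04 to -1.04 within the 3-month arrays.

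The counts of the genes were set beside those of all 17937 tested probes. With limma and Benjamini-Hochberg adjustment over all of them, 2 of the 9 genes, Prph and Slc6a3, were lower at 12 months with an adjusted p under 0.05, where 3.06% of all tested probes were called lower. The limma adjusted p was 0.030 for Prph and 0.049 for Slc6a3, the latter just under the threshold. In the other direction 0 of the 9 genes and 5.32% of all tested probes were called. The threshold that the study used asks for a change of over 2-fold and an unadjusted p under 0.05, and by it 4 of the 9 were lower (Prph, Th, Dbh and Slc6a3), where 11.9% of all tested probes were called. The p is that of limma, and by the methods' t-test 3 of the 9 were lower, without Th. That test was run without pairs, whereas the paper's lists of changed genes state a paired test for their p. Pairs entered here only through the replicate blocks, which are limma fits. Th also lost the call at the study's threshold after normexp, with either replicate block and with only 4 arrays whose names end alike. The same held when any array but 12-month replicate 2 was left out. Every 12-month array lay below every 3-month array for 5 of the 9 (these 4 and Nefm), as it did for 22.6% of all tested probes. Since the genes were chosen with this contrast known, nothing is read from these counts. The median difference of the 9 genes was -1.23, and that of all tested probes was -0.17. When 12-month replicate 1 or 3, or 3-month replicate 1, was left out, 0 of the 9 genes passed the adjusted threshold, and 1 passed when 3-month replicate 2 was left out.

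The 4 filament genes, Th, Dbh and Slc6a3 were lower at 12 months under each alternative setting run. The difference of Prph ran from -3.55 to -2.15 across the settings, that of Slc6a3 from -3.37 to -1.89 and that of Dbh from -2.76 to -1.35. The smallest of these came from a fit on only 4 arrays, 2 of each age, whose names end alike, where Nefl differed by -0.43. Aligning the arrays at their 75th percentile, which moved the median of all tested probes to -0.40, left Prph at -3.08 but moved Slc18a2 to 0.12 and Ddc to -0.20.

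**Figure D3:**
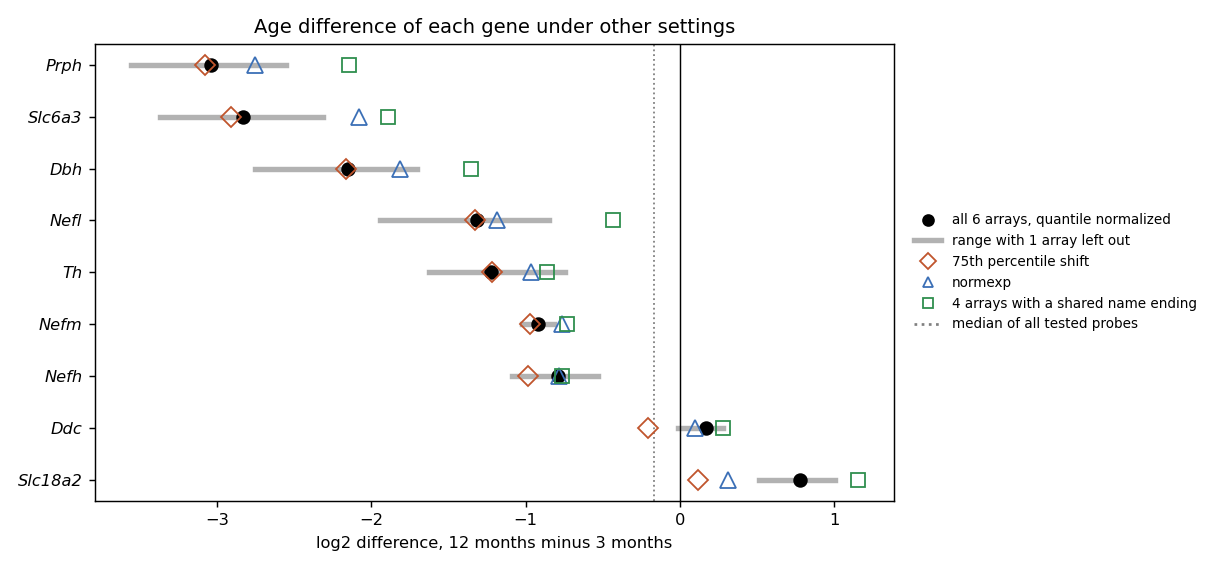
Difference in normalized log2 signal, 12 months minus 3 months, of the 9 genes with all 6 arrays (black), with 1 array left out (grey range), after a 75th percentile shift, after normexp background correction and with 4 arrays whose names end alike. Prph, Slc6a3 and Dbh stay at or below -1.35 in the settings drawn, and Ddc lies on both sides of 0.

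A further 94 genes of catecholamine handling, sympathetic development, neurotrophic signalling and nerve cells were listed by role in 7 lists, of which 81 had a probe and 72 were tested. At 12 months 2 of the 72 fell (2.78%, against 3.06% of all tested probes) and 3 rose (4.17%, against 5.32%), at an adjusted p under 0.05 (limma). At the threshold of the study 12 were lower (16.7%, against 11.9%) and 4 higher (5.56%, against 10.1%). Among the 12 were Gfra3 and Adrb3, with 0 of the 12-month arrays well above background. The median difference of the 72 genes was -0.28, with 47 below 0 (65.3%, against 58.0% of all tested probes). These counts depended on single arrays, since leaving out 12-month replicate 1 or 3 or 3-month replicate 1 left 0 fallen genes and 1 risen gene.

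The 12 tested genes of catecholamine and serotonin synthesis, breakdown and transport had a median difference of 0.08. Pts, an enzyme of the tetrahydrobiopterin cofactor that tyrosine hydroxylase needs, rose by 2.48 on the log2 scale (standard error 0.45, limma adjusted p = 0.027), from 4.84, 5.79 and 6.28 to 8.05, 7.61 and 8.69. Gch1, which starts the synthesis of the same cofactor, differed by 0.34 (adjusted p = 0.398). The plasma membrane noradrenaline transporter Slc6a2 differed by -0.09 (adjusted p = 0.902). Its level was 5.72, 4.52 and 5.85 at 3 months and 5.21, 5.77 and 4.85 at 12 months. These levels lay near the limit for detection on the 12-month arrays, of which 2 of 3 were well above background. A fall of Slc6a2 could thus not be read, and the value is not comparable with that of Slc6a3. Slc18a1, the vesicular transporter VMAT1, differed by 0.46 (adjusted p = 0.239).

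Of the sympathetic lineage factors 5 were tested. Isl1, which sympathetic and sensory neurons share with islet endocrine cells, rose by 3.25 (standard error 0.41, limma adjusted p = 0.011), from 5.11, 5.45 and 4.94 to 8.24, 7.76 and 9.26. Phox2a, a determinant of the noradrenergic phenotype, differed by -1.48 and did not pass (adjusted p = 0.062), with 7.90, 7.59 and 6.54 at 3 months and 6.03, 5.96 and 5.59 at 12 months.

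None of the 11 tested neurotrophic genes and none of the 12 tested adrenergic and dopamine receptor genes passed the adjusted threshold. Of all tested probes 3.06% were called lower by it and 5.32% higher. At the threshold of the study 2 of the 11 (18.2%) and 3 of the 12 (25%) were lower, against 11.9% of all tested probes. Gfra2, Adra1d and Drd5 were among them. Gfra3 and Adrb3, the latter named after its values were seen, were counted there too, but their 3-month means (4.32 and 4.57) lay within the range of the limit for detection on the 12-month arrays, so that no difference can be given for them. The neurotrophic list had a median of -0.52 with 9 of 11 below 0 (81.8%, against 58.0% of all tested probes). Nearest the threshold were the receptor chain Gfra2, which binds neurturin (-1.29, limma adjusted p = 0.063), and the shared signalling receptor Ret (-0.82, adjusted p = 0.069). Ngfr, the low-affinity neurotrophin receptor, differed by -0.56 (adjusted p = 0.173). The receptors had a median of -0.82 with 9 of 12 below 0 (75%, against 58.0% of all tested probes). Adra1d differed by -1.19 (adjusted p = 0.059), Adrb1 by -0.98 (adjusted p = 0.068) and the dopamine receptor Drd5 by -1.31 (adjusted p = 0.079). Drd3 had likewise 0 of the 12-month arrays well above background, so that no fold is given for it (adjusted p = 0.135).

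The 13 tested genes of the neuronal cytoskeleton and axon had a median of -0.24. Ina, alpha-internexin, which assembles with the neurofilament chains, differed by -1.10 (limma adjusted p = 0.055). Elavl4, a neuronal RNA-binding protein, rose by 3.21 (standard error 0.67, adjusted p = 0.037), from 4.26, 6.80 and 4.99 to 8.60, 7.93 and 9.15. The 9 other intermediate filament genes had a median of -0.05, with 0 past either threshold. Des, the muscle filament desmin, differed by 0.72 (adjusted p = 0.159), Nes by 0.53 (adjusted p = 0.578), Krt19 by -0.23 (adjusted p = 0.640) and Vim, the filament of mesenchymal cells, by -0.07 (adjusted p = 0.921).

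Among 10 tested genes of cholinergic and sensory neurons the median was -0.76. P2rx3, an ATP-gated channel of sensory neurons, fell by 1.52 (standard error 0.24, limma adjusted p = 0.019), from 10.85, 10.76 and 11.02 to 9.17, 9.64 and 9.26. At the threshold of the study 4 of these 10 genes were lower, against 11.9% of all tested probes, P2rx3 and 3 named after their values were seen. These were Vip, a peptide of parasympathetic neurons (-2.42, adjusted p = 0.076), Slc18a3, the vesicular acetylcholine transporter (-1.40, adjusted p = 0.086), and Chrnb4, a nicotinic receptor subunit of autonomic ganglia (-1.20, adjusted p = 0.089). The levels of Vip were 12.44, 11.45 and 10.02 at 3 months and 9.41, 9.43 and 7.82 at 12 months, with replicate 3 lowest at each age, as for Prph. In the other direction 1 of the 10 passed, against 10.1% of all tested probes, which was Calca, which encodes calcitonin and the sensory peptide CGRP (1.71, adjusted p = 0.077).

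**Figure D4:**
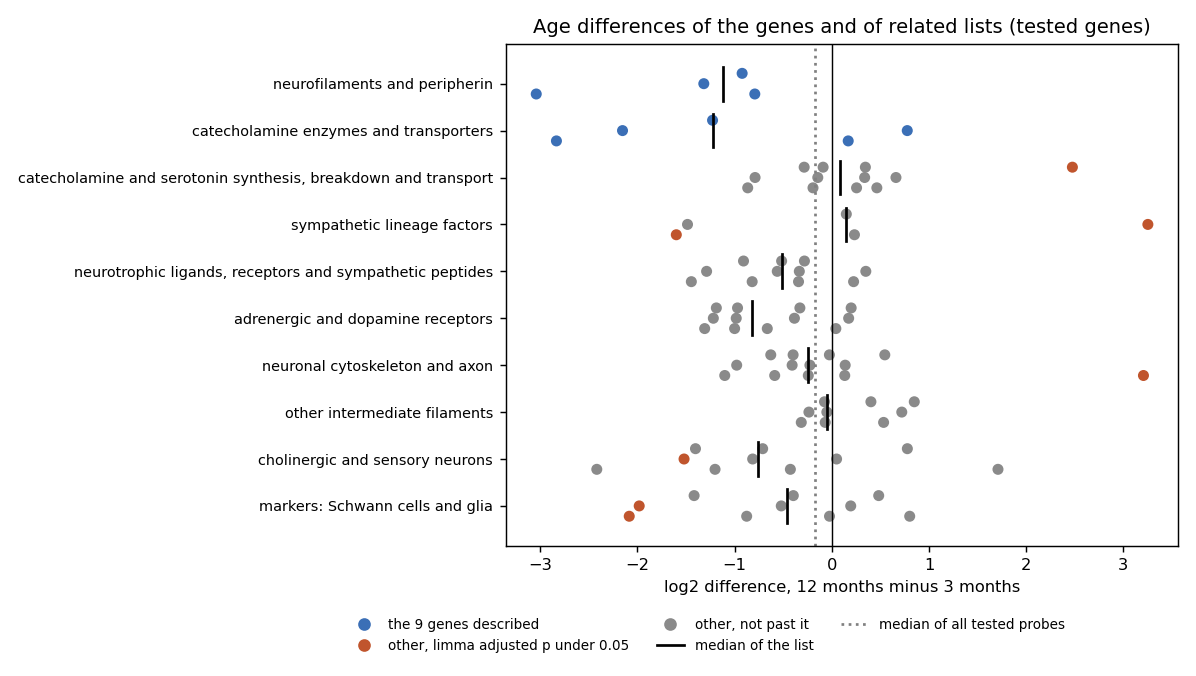
Difference in normalized log2 signal, 12 months minus 3 months, of each tested gene (points) by list, with the list median (black bar) and the median of all tested probes (dotted line, -0.17). The 9 genes described are blue, and among the others orange points passed a limma adjusted p under 0.05, 5 in the 7 related lists and 2 among Schwann cell and glia markers. Gfra3, Adrb3 and Drd3 are drawn at measured values that were not well above background at 12 months.

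Markers of other cells moved between the same arrays. Of 15 markers of Schwann cells and glia, the cells that wrap nerve fibres, 14 had a probe and 10 were tested. Their summed linear signal after normalization ran from 12134 to 12701 at 3 months and from 9096 to 10216 at 12 months, with no overlap. Cnp, the brightest of them, made up the largest part of this sum (-0.40, limma adjusted p = 0.275). Of the 10 tested markers 7 read lower (70%, against 58.0% of all tested probes) and 3 higher. Sox10 and Mbp, which define Schwann cells and their myelin, fell by 2.08 (standard error 0.38, limma adjusted p = 0.034) and 1.98 (standard error 0.31, adjusted p = 0.018), while Cdh19 and Erbb3 were not well above background on any array. Sox10 had no usable value on 3-month replicate 1, so its difference rests on 2 arrays at that age. The summed signal of that array lacks Sox10. The summed signal of the endothelial markers ran from 59137 to 76777 at 3 months and from 34184 to 57839 at 12 months. Plvap, the brightest of them, made up most of this sum (-0.59, limma adjusted p = 0.194). Of the 7 tested endothelial markers 5 read lower and 2 higher. One of the latter, Pecam1, was higher without overlap (1.23, adjusted p = 0.124). The summed signal of the fibroblast and pericyte markers ran from 12344 to 20240 at 3 months and from 27630 to 67574 at 12 months. Col3a1, the brightest of them, made up the largest part of this sum (1.68, limma adjusted p = 0.067). Of the 7 tested markers of this list 6 read higher and 1 lower. The latter, Cspg4, was lower without overlap (-0.92, adjusted p = 0.056). The summed signal of the endocrine markers was higher at 12 months without overlap. For beta cells it ran from 827286 to 968675 at 3 months and from 1002528 to 1166326 at 12 months. For other endocrine cells it ran from 721798 to 791995 and from 912954 to 1009359. The single beta cell markers were mixed, with 4 of 6 higher, 2 of them without overlap, and 2 lower. Iapp differed by 0.95 (limma adjusted p = 0.053), Ins1 by 0.10, Ins2 by -0.12 and Nkx6-1 by -0.22. Of the 8 other endocrine markers 7 read higher, 4 of them without overlap. Among the endocrine markers Slc30a8, the zinc transporter of insulin granules, rose by 3.71 on the log2 scale (limma adjusted p = 0.009). Hhex, a transcription factor of delta cells, rose by 1.68 (adjusted p = 0.024). The part of these cells in the differences of the 9 genes was not tested. More probes stood well above background on the 3-month arrays (75.6% ± 2.29, SD, n = 3) than on the 12-month arrays (61.2% ± 2.61, SD, n = 3). The arrays of an age were scanned together and apart from those of the other age, and the effects of scan and age cannot be told apart.

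Among 9089 genes well above background on all 6 arrays, those with a pattern over the arrays most like that of Prph included Frmd8 (Pearson r = 0.992), Tsc2 (0.990), Zc3h12c (0.990) and Ikbkb (0.989). Most like Slc6a3 were Itpripl1 (0.997), Trim40 (0.996), Lto1 (0.996), Camp (0.995) and Sclt1 (0.994). None of these 9 is a listed gene. The correlations are descriptions over 6 arrays of 2 ages that share their normalization. All 9 were lower at 12 months, by 0.40 to 1.40 on the log2 scale, less than Prph and Slc6a3.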

How the data were processed

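Islet RNA of rats of both ages was measured on 6 Agilent 1-colour arrays of Arraystar design. The deposited scanner files hold spot intensity from Agilent Feature Extraction 11.0.1.1, background-subtracted per the file headers and not normalized between arrays. The authors also deposited a table of quantile-normalized log2 values, used as an alternative. Here spots of a probe were averaged as log2 intensity, all non-control probes were quantile normalized, and a probe was tested if at least 3 of 6 arrays read it well above background. Ages were compared with limma 3.58.1 in R 4.3.3 (lmFit and eBayes, two-sided, Benjamini-Hochberg over 17937 probes), a step tested on simulated data. There is no read depth for arrays, and precision is limited by their number. An exact permutation test of 3 arrays against 3 cannot give a two-sided p under 0.1.

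Names came from RefSeq accessions (assembly GRCr8), and the probe with the highest mean stood for a gene. The array design names build rn4, so no coordinates of probes are given. The members and lists were chosen with earlier results of these data known. Named were all 9 members, every related gene past an adjusted p of 0.05 or, for a list with none, up to 3 with the smallest p, and related genes whose role pairs them with a member. Some genes that these rules select are not reported here, and counts still hold those that had a probe. The limit for detection is the lowest signal well above background on each array. Some probes that read above this limit were not well above background, so it gives no bound for a fold. The alternatives were another scaling, background correction, filters, the authors' table, replicate blocks, 4 arrays, left-out arrays, other tests and every probe of a gene.

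Whether the replicate numbers pair the samples could not be decided. Deviations from the age means correlated at -0.01 and -0.31 over 17872 probes for the 2 pairs numbered in the labels. For the third pair, formed by elimination, they correlated at -0.26. The deviations of an age cancel out over its few arrays, so these correlations cannot rule pairing out. The paper's lists of changed genes state a paired test for these arrays.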

Additional observations from a re-analysis of the deposited data

Results flagged for a closer look

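Signal in the negative control spots, which hold no rat sequence and enter no comparison, differed between the ages. Before background subtraction their median was 90.5 scanner units (mean of the 12-month arrays) against 30.2 (mean of the 3-month arrays). The gene values given above in scanner units are background-subtracted. On that scale the median of the negative controls ran from 8.47 to 11.6 at 12 months and from 1.67 to 2.24 at 3 months. The part of this signal in the differences of the 9 genes was not tested. After normexp background correction Prph differed by -2.75, Slc6a3 by -2.08 (-2.83 without it), Dbh by -1.82, Th by -0.97 (-1.23 without it) and Slc18a2 by 0.31 (0.78 without it).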

How the results depend on the processing

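Of the 9 genes, 2 were lower at the adjusted threshold. This count was 0 with a replicate block of the numbered pairs and 1 with a replicate block of 3 pairs. It was 0 with only the 4 arrays whose names end alike, 0 by the methods' t-test and between 0 and 2 when an array was left out. The genes called also changed where the count stayed at 2. They were Prph and Nefm without a filter on dim probes, and Prph and Dbh without 3-month replicate 3, so that Slc6a3 lost its call in both. At the threshold of the study 4 were lower, 2 with the 4 arrays, 3 by the methods' t-test or after normexp, and between 3 and 5 when an array was left out. Of the related genes 2 fell: 5 after a 75th percentile shift, 4 without a filter, 5 among probes above background on all 6 arrays, 0 with either replicate block or the 4 arrays, 1 by the methods' t-test and between 0 and 3 when an array was left out. The 3 that rose were 0 with either replicate block, the 4 arrays or the methods' t-test, and between 1 and 4 when an array was left out. The 12 lower at the threshold of the study were 5 after normexp, 4 with the 4 arrays and between 11 and 15 when an array was left out. The causes were not tested, but the 4 arrays and each left-out array leave fewer samples.

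Over all probes 548 were lower and 955 higher at the adjusted threshold, 925 and 794 after the 75th percentile shift, and 0 and 0 with the 4 arrays. At the threshold of the study these counts were 2133 and 1819, and 3532 and 1388 after the shift. Prph differed by -2.15 with the 4 arrays, Nefh and Th by -1.32 and -0.53 with the block of the numbered pairs, and Ddc and Slc18a2 by -0.20 and 0.12 after the shift. The number of arrays and, for Slc18a2, signal near background limit these results.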
